A study of Homo sapiens with 12 samples.

Results

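The enzymes that add acetyl groups to histones, the enzymes that remove them, the bromodomain proteins that bind the acetylated tails and the subunits of deacetylase complexes were followed in HK-2 cells exposed to a low dose of Ota. A fixed list of 39 human genes defined the group, and every probe set annotated to exactly 1 of these genes was taken. Such probe sets were found for 38 of the 39 genes, 96 probe sets among the 41091 with 1 gene symbol on the array. NCOR1, a scaffold of a deacetylase corepressor complex, had none and was not analysed here. HK-2 is an immortalised human line derived from the proximal tubule epithelium of the kidney. The groups were cells given low-dose Ota for 24 h, cells given low-dose Ota for 72 h, and cells given the vehicle for 24 h or 72 h, with 3 arrays labelled as biological replicates in each. All 4 groups were grown in the same defined medium with epidermal growth factor, hydrocortisone, insulin, transferrin and selenite and were treated near confluency. The labels state no concentration and do not write out what Ota stands for, and the line is a single immortalised one.

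Acetylation neutralises the positive charge of lysines in histone tails, which loosens chromatin and creates docking sites for bromodomains. Acetyltransferases take the acetyl group from acetyl-CoA and mostly work inside large complexes. Zinc-dependent deacetylases of classes I, II and IV and the NAD-dependent sirtuins take it off again, and class I enzymes do so in the SIN3, NuRD, CoREST and NCoR complexes. Many of these enzymes also act on proteins other than histones.

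The promoters of 4 members are shown because HDAC1, HAT1 and RBBP7 were higher in Ota cells than in controls at 72 h, and because RBBP4 had probe sets that moved in opposite directions. The sequences are RefSeq's on GRCh38.p14, 250 bases before to 50 bases after the annotated gene start, written 5′ to 3′ on the strand of the gene. They lie at chr1:32291833-32292132 (plus strand, HDAC1), chr2:171922211-171922510 (plus strand, HAT1), chrX:16870313-16870612 (minus strand, RBBP7) and chr1:32650958-32651257 (plus strand, RBBP4). Capitals mark matches on either strand to 5 short motifs: the CCAAT box, the SP1 box GGGCGG, the ETS site CCGGAAGT, the cyclic AMP response element TGACGTCA, and an E2F core, spelled TTCCCGC with the letters after TT allowed to be CC, CG, GC or GG.
HDAC1: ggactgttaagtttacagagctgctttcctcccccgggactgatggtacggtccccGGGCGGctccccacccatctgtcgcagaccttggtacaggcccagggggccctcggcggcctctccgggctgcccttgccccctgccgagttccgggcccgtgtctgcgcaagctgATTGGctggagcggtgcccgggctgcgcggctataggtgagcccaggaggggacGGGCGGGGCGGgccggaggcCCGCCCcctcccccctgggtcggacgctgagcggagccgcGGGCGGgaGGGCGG
HAT1: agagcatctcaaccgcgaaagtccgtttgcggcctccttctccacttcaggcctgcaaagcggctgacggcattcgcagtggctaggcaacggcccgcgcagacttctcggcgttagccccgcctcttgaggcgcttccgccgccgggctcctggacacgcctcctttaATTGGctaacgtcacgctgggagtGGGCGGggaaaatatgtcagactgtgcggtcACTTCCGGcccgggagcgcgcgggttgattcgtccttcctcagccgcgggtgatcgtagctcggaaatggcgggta
RBBP7: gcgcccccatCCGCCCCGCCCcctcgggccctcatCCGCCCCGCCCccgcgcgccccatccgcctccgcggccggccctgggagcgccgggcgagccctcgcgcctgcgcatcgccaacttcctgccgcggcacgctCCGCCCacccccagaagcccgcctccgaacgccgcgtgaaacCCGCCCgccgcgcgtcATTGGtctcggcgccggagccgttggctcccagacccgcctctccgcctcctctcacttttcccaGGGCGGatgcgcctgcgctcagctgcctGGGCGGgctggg
RBBP4: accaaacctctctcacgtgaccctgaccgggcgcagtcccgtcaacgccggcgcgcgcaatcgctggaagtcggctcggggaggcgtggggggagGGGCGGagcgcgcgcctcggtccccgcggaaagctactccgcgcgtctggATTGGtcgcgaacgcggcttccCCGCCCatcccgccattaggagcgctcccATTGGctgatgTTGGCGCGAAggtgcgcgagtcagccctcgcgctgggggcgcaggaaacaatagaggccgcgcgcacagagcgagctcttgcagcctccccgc

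Each of the 4 promoters held a CCAAT box, written ATTGG on the strand of the gene. It lay 78 bases before the gene start in HDAC1, 81 in HAT1 and 55 in RBBP7, and RBBP4 held 2, at 105 and 54 bases. An E2F core was found only in RBBP4 among these 4, as 2 overlapping matches. Promoters were matched for 35 of the 39 members. Of these, 12 held a CCAAT box, a share close to the 34.6% of all 35116 promoters in the table. The E2F core was in 5 of the 35 against 13.0% of all promoters, the SP1 box in 23 against 45.0%, the ETS site in 5 against 4.14%, and the cyclic AMP response element in 1 against 1.85%. Members were counted by 1 promoter each, while the table's entries were not reduced to 1 per gene. The shares are thus of unlike sets and were not tested against each other. A match is a description of the letters, not of a bound site.

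Values are the authors' log2 GCRMA values, so a difference of 1 is 2-fold, and levels of different probe sets were not set against each other. A gene was counted by its brightest probe set, the one with the highest mean over the 12 arrays, and was tested where that probe set exceeded 4 on the log2 scale on 3 or more arrays. For 35 of the 38 genes it did. The 3 that did not were HDAC10 (mean 3.83), SIRT4 (mean 2.77) and MTA2 (mean 2.43). HDAC10, a deacetylase of polyamines, reached 4.74 on 1 Ota array at 24 h and stayed below 4 on the other arrays. In all, 61 of the 96 probe sets were tested. Differences are given with the standard error (SE) of the limma fit, and a gene was called where the adjusted p over all 22477 tested probe sets was below 0.05. In bulk RNA, fewer cells of a type and less RNA per cell cannot be told apart.

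The arrays correlated at 0.982 to 0.993 within groups. Of the proximal tubule markers, only PAX8 among the 10 named was above the filter, while all 5 epithelial markers were, as were 3 of 5 fibroblast markers, 0 of 5 endothelial and 0 of 4 leukocyte markers. The mean of the fibroblast markers was 6.78 to 6.97 on Ota and 6.80 to 6.99 on control arrays at 24 h, and 6.51 to 6.71 on Ota and 5.91 to 6.09 on control arrays at 72 h. Their part in the results at 72 h was not tested. As a measure of RNA integrity, actin's 3′ control probe set exceeded its 5′ one by 1.17 ± 0.12 in Ota and 1.01 ± 0.20 in control cells at 24 h, and 1.28 ± 0.08 in Ota and 1.18 ± 0.17 in control cells at 72 h (SD, n = 3 each).

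**Figure D1:**
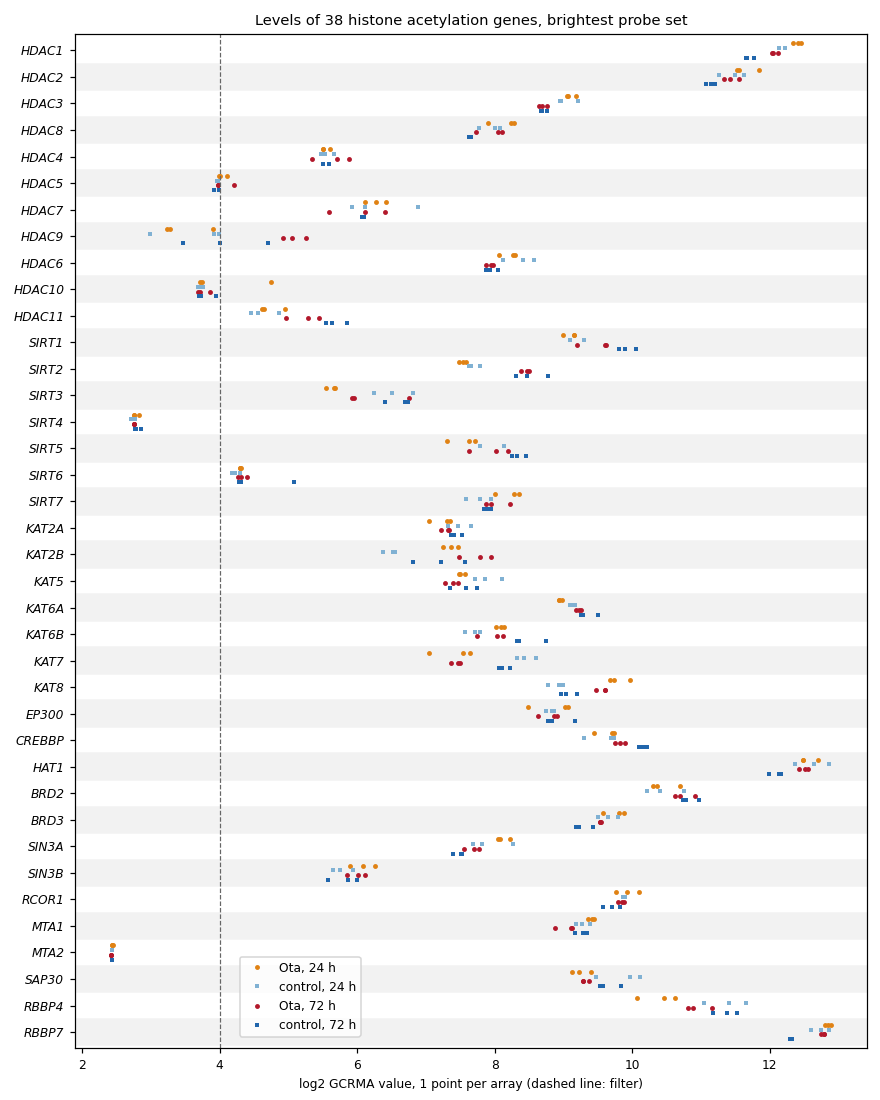
Log2 GCRMA values of the brightest probe set of the 38 genes, 1 point per array, for Ota and control cells at 24 h and 72 h. The dashed line is the filter at a log2 value of 4, and HDAC10, SIRT4 and MTA2 lie at or below it on nearly all arrays.

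At 24 h the acetyltransferases KAT5, KAT7, KAT8 and KAT2B and 3 sirtuins differed between Ota and control cells, while none of the zinc-dependent deacetylases passed the test by its brightest probe set. Of the 35 genes tested, 9 were called, 3 higher (KAT8, KAT2B and SIRT7) and 6 lower (KAT7, SIRT3, RBBP4, SAP30, KAT5 and SIRT5). Over all 10699 genes tested the share called was 29.8%, with 8.94% higher and 20.9% lower, so the share among the members, 25.7%, lay near the background. The median log2 difference was 0.05 over the members and -0.06 over all genes. With the arrays shifted to a common median of the tested probe sets the split was 5 higher and 5 lower. Ota arrays lay wholly above or below the control arrays in 15 of the 35 members (42.9%), against 42.7% of all genes.

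KAT7, also called HBO1, acetylates histones H3 and H4 and is known for its link to replication origins. Its log2 values were 7.64, 7.05 and 7.54 in Ota cells, against 8.60, 8.42 and 8.33 in control cells at 24 h. All Ota arrays lay below all control arrays. The log2 difference was -1.04 ± 0.14 (adjusted p = 0.000269). KAT8, also called MOF, is the main acetyltransferase of a single lysine of histone H4 and works in the MSL and NSL complexes. It read 9.73, 9.97 and 9.68 in Ota cells, against 8.78, 8.99 and 8.94 in control cells at 24 h. The groups did not overlap, and the log2 difference was 0.89 ± 0.11 (adjusted p = 0.00012). KAT2B, known as PCAF and a catalytic subunit of the SAGA and ATAC complexes, read 7.46, 7.25 and 7.37 in Ota cells, against 6.52, 6.37 and 6.55 in control cells at 24 h. Again each Ota array exceeded each control array, by 0.88 ± 0.18 on the log2 scale in the means (1.84-fold, adjusted p = 0.00323). KAT5, or TIP60, is the acetyltransferase of the NuA4 complex and acts in DNA damage signalling. Its values were 7.57, 7.49 and 7.48 in Ota cells, against 7.86, 8.10 and 7.71 in control cells at 24 h. The gap between the groups was narrow, and the log2 difference was -0.38 ± 0.12 (adjusted p = 0.0374).

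The remaining MYST enzymes, KAT6A and KAT6B, form the MOZ and MORF complexes and were not called at 24 h. KAT6B nevertheless had 8.13, 8.09 and 8.02 in Ota cells, against 7.72, 7.57 and 7.79 in control cells, without overlap (log2 difference 0.39 ± 0.13, adjusted p = 0.0506). KAT6A differed by -0.17 ± 0.09 on the log2 scale (adjusted p = 0.173). KAT2A, or GCN5, the close relative of KAT2B in the same complexes, had 7.35, 7.04 and 7.31 in Ota cells, against 7.46, 7.32 and 7.66 in control cells at 24 h. The ranges of the groups overlapped slightly, and the log2 difference was -0.25 ± 0.11 (adjusted p = 0.131).

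Among the sirtuins, SIRT3, a mitochondrial deacetylase, read 5.66, 5.55 and 5.68 in Ota cells, against 6.5, 6.81 and 6.25 in control cells at 24 h. The Ota arrays lay close together and below all control arrays, with a log2 difference of -0.89 ± 0.22 (adjusted p = 0.00931). SIRT7, a nucleolar deacetylase, had 8.01, 8.28 and 8.35 in Ota cells, against 7.78, 7.59 and 7.94 in control cells at 24 h. It was higher without overlap, by 0.45 ± 0.13 on the log2 scale (adjusted p = 0.0225). SIRT5, a mitochondrial enzyme that removes succinyl and malonyl groups, had 7.62, 7.31 and 7.71 in Ota cells, against 8.13, 7.79 and 8.14 in control cells at 24 h. Its log2 difference of -0.47 ± 0.16 was just past the threshold (adjusted p = 0.0496). SIRT1, a nuclear deacetylase of histones and of p53, had 9.15, 9.15 and 8.99 in Ota cells, against 9.10, 9.30 and 9.10 in control cells at 24 h. These ranges overlapped (log2 difference -0.07 ± 0.13, adjusted p = 0.73). SIRT2, which deacetylates tubulin, and SIRT6 were not called either, at -0.16 ± 0.12 and 0.07 ± 0.17.

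Of the deacetylase complex subunits, SAP30, a part of the SIN3 complex, had 9.13, 9.22 and 9.40 in Ota cells, against 9.97, 9.48 and 10.12 in control cells at 24 h. The groups did not overlap (log2 difference -0.61 ± 0.16, adjusted p = 0.0123). The second SAP30 probe set read 6.53, 6.40 and 6.12 in Ota cells, against 6.98, 7.15 and 7.17 in control cells at 24 h, and was lower as well (-0.75 ± 0.12, adjusted p = 0.000731). RBBP4, a WD-repeat protein that binds histone H4 in the NuRD, SIN3 and CAF-1 complexes, was lower by its brightest probe set, but its 6 probe sets moved apart and are described below with their values. SIN3A, SIN3B, RCOR1, MTA1 and RBBP7 were not called at 24 h, with log2 differences from 0.05 to 0.31.

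The class I deacetylases were not called at 24 h. HDAC1 read 12.41, 12.46 and 12.34 in Ota cells, against 12.22, 12.22 and 12.14 in control cells at 24 h. Each Ota array exceeded each control array by a small margin (log2 difference 0.21 ± 0.08, adjusted p = 0.0669). HDAC2, its close paralog, had 11.84, 11.55 and 11.52 in Ota cells, against 11.62, 11.27 and 11.50 in control cells at 24 h, with overlap (0.18 ± 0.12, adjusted p = 0.313). HDAC3, the enzyme of the NCoR and SMRT complexes, had 9.05, 9.18 and 9.07 in Ota cells, against 8.95, 9.21 and 8.96 in control cells at 24 h. Its groups overlapped as well (0.06 ± 0.09, adjusted p = 0.701). The fourth class I enzyme, HDAC8, differed by 0.19 ± 0.14. The class IIa, IIb and IV enzymes tested, HDAC4, HDAC5, HDAC7, HDAC9, HDAC6 and HDAC11, differed by -0.16 to 0.12 at 24 h. Of these, HDAC5 read 3.92 to 4.21 on the 12 arrays, and HDAC9 had means of 3.48 in Ota and 3.63 in control cells at 24 h. Changes in these 2 genes could go unseen at such low values.

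EP300 and CREBBP, the paired coactivator acetyltransferases p300 and CBP, were not called at 24 h by their brightest probe sets. EP300 read 9.02, 9.06 and 8.49 in Ota cells, against 8.84, 8.74 and 8.87 in control cells at 24 h (log2 difference 0.04 ± 0.16, adjusted p = 0.886). CREBBP read 9.74, 9.70 and 9.44 in Ota cells, against 9.69, 9.30 and 9.73 in control cells at 24 h (0.05 ± 0.13, adjusted p = 0.799). Both genes had overlapping groups. HAT1, which acetylates newly made histone H4 before its deposition, had 12.49, 12.49 and 12.71 in Ota cells, against 12.65, 12.37 and 12.87 in control cells at 24 h (-0.07 ± 0.13, adjusted p = 0.75). BRD2, a BET protein that reads acetylated histones, had 10.36, 10.70 and 10.31 in Ota cells, against 10.41, 10.76 and 10.21 in control cells at 24 h. For BRD2 the difference was 0.00 ± 0.16 (adjusted p = 0.998), and for BRD3, another BET protein, 0.11 ± 0.11 (adjusted p = 0.516). Across the 26 members not called at 24 h the log2 differences ran from -0.25 to 0.39, and the 95% intervals reached from -0.89 to 0.68.

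The calls of KAT5, SIRT5 and SIRT7 at 24 h did not survive the loss of some single arrays. KAT5's adjusted p rose to 0.121 at most and passed 0.05 without any 1 of the 3 Ota arrays, control replicate 1 or 2 at 24 h, Ota replicate 1 at 72 h or control replicate 1 at 72 h, and SIRT5's ranged up to 0.178 and passed 0.05 without Ota replicate 1 or 2 or control replicate 1 or 3 at 24 h, Ota replicate 2 at 72 h or any control array at 72 h. SIRT7's was 0.0551 to 0.0767 without Ota replicate 2 or 3 or control replicate 1 or 2 at 24 h.

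**Figure D2:**
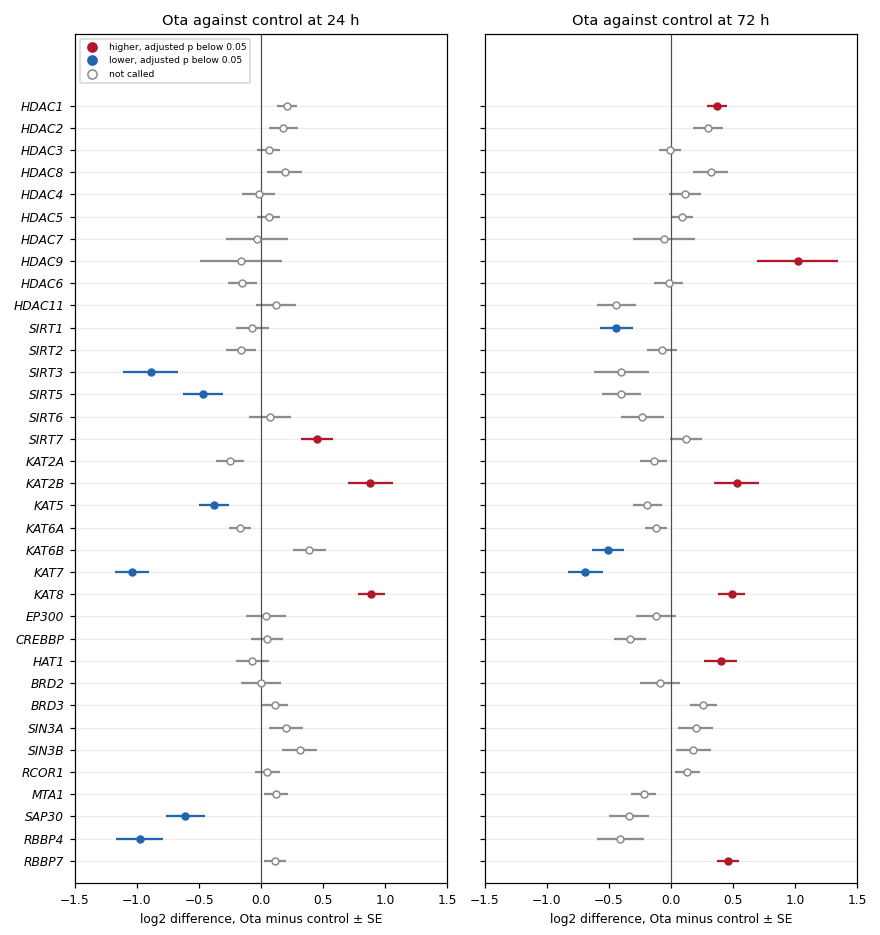
Log2 difference between Ota and control cells for the brightest probe set of the 35 genes tested, at 24 h on the left and 72 h on the right. Points are the fit's estimates, bars are ± SE, and coloured points passed an adjusted p below 0.05. KAT7 lies farthest to the left at both times, at -1.04 and -0.69.

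At 72 h the MYST enzymes KAT7 and KAT8 again differed in the same directions, and HDAC1, HAT1 and RBBP7 were higher in Ota cells. Of the 35 genes, 9 were called: HDAC1, HDAC9, KAT2B, KAT8, HAT1 and RBBP7 higher, and KAT7, KAT6B and SIRT1 lower. Over all genes tested the share called was 29.4%, with 15.7% higher and 13.7% lower, which is close to the 25.7% among the members. The median log2 difference was -0.06 over the members and 0.01 over all genes. With the arrays shifted to a common median of the tested probe sets the split was 4 higher and 7 lower. The groups did not overlap in 19 of the 35 members (54.3%), against 51.4% of all genes. KAT2B, KAT7 and KAT8 were called at both times, each in the same direction. They make up 33.3% of the 9 members called at 24 h and 33.3% of the 9 called at 72 h, where 40.9% and 41.5% of all called genes were shared between the times.

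HDAC1, a class I deacetylase shared by the SIN3, NuRD and CoREST complexes, read 12.12, 12.03 and 12.05 in Ota cells, against 11.67, 11.77 and 11.65 in control cells at 72 h. Replicates lay close together and the groups were well apart. The log2 difference was 0.37 ± 0.08 (adjusted p = 0.00541). HDAC2 had 11.56, 11.43 and 11.34 in Ota cells, against 11.21, 11.14 and 11.07 in control cells at 72 h. It did not overlap between groups but missed the threshold (0.30 ± 0.12, adjusted p = 0.0861). HDAC3 had 8.65, 8.76 and 8.69 in Ota cells, against 8.67, 8.76 and 8.69 in control cells at 72 h, nearly the same values (-0.01 ± 0.09, adjusted p = 0.977). HDAC8 differed by 0.32 ± 0.14 (adjusted p = 0.105).

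HAT1 had 12.56, 12.51 and 12.43 in Ota cells, against 11.99, 12.16 and 12.14 in control cells at 72 h. All Ota arrays were above all control arrays, by 0.40 ± 0.13 in the means on the log2 scale (adjusted p = 0.0376). RBBP7, the WD-repeat partner of HAT1 and a close paralog of RBBP4, read 12.79, 12.75 and 12.79 in Ota cells, against 12.30, 12.33 and 12.32 in control cells at 72 h. The spread within each group was small beside the log2 difference of 0.46 ± 0.09 (adjusted p = 0.00249). The other subunits, SIN3A, SIN3B, RCOR1, MTA1, SAP30 and RBBP4, were not called at 72 h by their brightest probe sets, at -0.41 to 0.20.

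Among the MYST enzymes, KAT7 read 7.37, 7.47 and 7.5 in Ota cells, against 8.23, 8.06 and 8.11 in control cells at 72 h (log2 difference -0.69 ± 0.14, adjusted p = 0.00468). KAT8 read 9.61, 9.60 and 9.47 in Ota cells, against 9.04, 9.20 and 8.96 in control cells at 72 h (0.49 ± 0.11, adjusted p = 0.00651). For both genes the groups stayed apart as at 24 h. KAT6B had 8.04, 8.12 and 7.74 in Ota cells, against 8.36, 8.74 and 8.33 in control cells at 72 h. It was lower without overlap (-0.51 ± 0.13, adjusted p = 0.0158). KAT5 and KAT6A were not called at 72 h, at -0.19 ± 0.12 and -0.12 ± 0.09. KAT2B had 7.94, 7.79 and 7.48 in Ota cells, against 6.81, 7.57 and 7.22 in control cells at 72 h. Its groups overlapped, since control replicate 2 exceeded Ota replicate 3, and the log2 difference was 0.53 ± 0.18 (adjusted p = 0.0446). KAT2A had 7.22, 7.32 and 7.34 in Ota cells, against 7.36, 7.53 and 7.41 in control cells at 72 h (-0.14 ± 0.11, adjusted p = 0.415).

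SIRT1 had 9.20, 9.61 and 9.62 in Ota cells, against 9.90, 10.06 and 9.81 in control cells at 72 h. It was lower in Ota cells without overlap (log2 difference -0.44 ± 0.13, adjusted p = 0.0235). SIRT3 and SIRT5 were not called at 72 h, both at -0.40, with SE of 0.22 for SIRT3 and 0.16 for SIRT5. SIRT7 differed by 0.12 ± 0.13, SIRT2 by -0.07 ± 0.12 and SIRT6 by -0.23 ± 0.17. HDAC9, a class IIa deacetylase that binds MEF2 factors, had 4.92, 5.05 and 5.26 in Ota cells, against 4.0, 3.46 and 4.7 in control cells at 72 h. These values lie near the filter, and the control arrays spread over more than 1 log2 unit (difference 1.02 ± 0.33, adjusted p = 0.0416). The HDAC9 probe set passed the filter only through the Ota arrays at 72 h, the group where it was high. Its call was thus favoured by the filter. The other class IIa enzymes, HDAC4, HDAC5 and HDAC7, differed by -0.06 to 0.11 on the log2 scale. HDAC6, the tubulin deacetylase of class IIb, differed by -0.02 ± 0.12. HDAC11, the class IV enzyme, had 5.29, 5.45 and 4.96 in Ota cells, against 5.63, 5.85 and 5.55 in control cells at 72 h, without overlap and without a call (-0.44 ± 0.16, adjusted p = 0.0578).

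EP300 had 8.91, 8.87 and 8.63 in Ota cells, against 8.83, 9.17 and 8.77 in control cells at 72 h (log2 difference -0.12 ± 0.16, adjusted p = 0.624). CREBBP had 9.82, 9.75 and 9.90 in Ota cells, against 10.16, 10.21 and 10.10 in control cells at 72 h. CREBBP did not overlap between groups, but was not called (-0.33 ± 0.13, adjusted p = 0.0742). BRD2 had 10.62, 10.92 and 10.70 in Ota cells, against 10.74, 10.97 and 10.79 in control cells at 72 h (-0.09 ± 0.16, adjusted p = 0.719). BRD3 differed by 0.26 ± 0.11 (adjusted p = 0.114). Over the 26 members not called at 72 h, log2 differences ran from -0.44 to 0.32 and the 95% intervals reached from -0.88 to 0.62.

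Several of the calls at 72 h did not survive the loss of an array, and 5 rather than 9 members were called without Ota replicate 1, control replicate 1 or control replicate 2 at 72 h. HAT1's adjusted p was 0.0603 to 0.122 without any 1 array of the 72 h groups, with 0.051 without control replicate 1 at 24 h, HDAC9's was 0.0503 to 0.146 without any Ota array or control replicate 1 or 2 at 72 h or Ota replicate 3 at 24 h, and KAT2B's was 0.0505 to 0.157 without any array but Ota replicate 3 or control replicate 2 at 72 h (its log2 difference was 0.34 without control replicate 1 at 72 h). KAT6B's was 0.0629 without Ota replicate 3 and 0.0551 without control replicate 2 at 72 h, and 0.154 with its probe sets averaged (log2 difference -0.33), and SIRT1's was 0.0895 without Ota replicate 1, 0.0561 without control replicate 1 and 0.081 without control replicate 2 at 72 h.

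**Figure D3:**
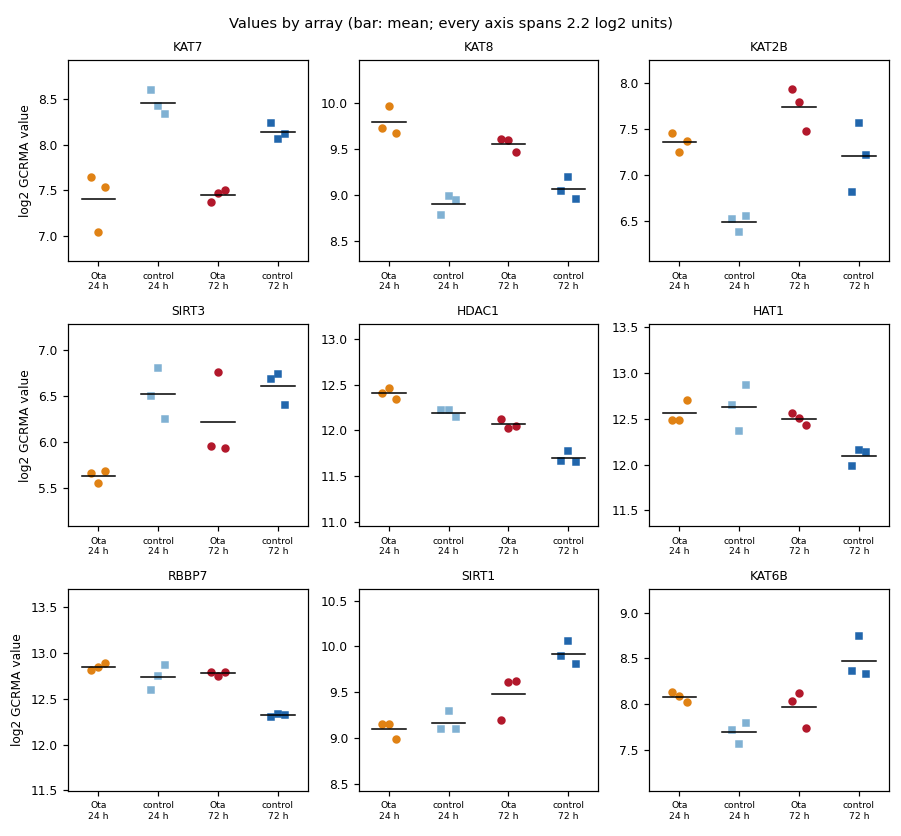
Log2 GCRMA values on each array for 9 members with a call, by group, with a bar for the mean of 3 arrays. Ota cells stand left of control cells at each time, and KAT7 and KAT8 keep their separation at 24 h and 72 h.

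The responses at the 2 times were set against each other by the interaction in the same fit. By the brightest probe set, KAT6B was the only member called, with a response of -0.51 at 72 h and 0.39 at 24 h, a difference of -0.90 ± 0.19 (adjusted p = 0.0108). Over all genes tested 18.6% were called for this difference, and 4.91% in the direction of KAT6B. Among the 35 members 7 had an unadjusted p under 0.05, against 3590 of all 10699 genes, so the share was lower among the members. The mean of KAT6B in Ota cells was 7.97 at 72 h and 8.08 at 24 h, while in control cells it was 8.48 at 72 h and 7.69 at 24 h. The count was 2 without control replicate 1 at 24 h or control replicate 3 at 72 h, and 3 without control replicate 2 at 24 h. With the mean of KAT6B's probe sets the difference was -0.57 (adjusted p = 0.109). For KAT7 and KAT8 the responses were smaller at 72 h than at 24 h in size, and those differences did not pass the test (0.35 ± 0.20 and -0.40 ± 0.15, adjusted p = 0.268 and 0.104).

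The members were also compared over time, in contrasts that share their arrays with the Ota comparisons. In control cells at 72 h against 24 h, 6 of 35 members were higher and 7 lower (37.1% called), where 44.1% of all genes were called, 21.5% higher and 22.6% lower. HDAC11 (log2 difference 1.06 ± 0.16, adjusted p = 0.000382), SIRT2 (0.83 ± 0.12, adjusted p = 0.000247), KAT6B (0.78 ± 0.13, adjusted p = 0.000938), SIRT1 (0.76 ± 0.13, adjusted p = 0.000809), KAT2B (0.72 ± 0.18, adjusted p = 0.00795) and CREBBP (0.58 ± 0.13, adjusted p = 0.0041) were higher. HAT1 (-0.53), HDAC1 (-0.50), SIN3A (-0.45), HDAC6 (-0.42), RBBP7 (-0.42), BRD3 (-0.37) and HDAC3 (-0.33) were lower. In Ota cells at 72 h against 24 h, 6 members were higher and 4 lower (28.6% called), where 29.3% of all genes were called, 20.4% higher and 8.86% lower. HDAC9 (1.60), SIRT2 (0.92), RBBP4 (0.56), HDAC11 (0.50), SIRT1 (0.38) and KAT6A (0.27) were higher, and SIN3A (-0.45), HDAC3 (-0.40), MTA1 (-0.37) and HDAC1 (-0.34) were lower. Here too HDAC9 passed the filter only through the Ota arrays at 72 h, where it was high. SIRT2 was higher at 72 h in both: its mean was 8.45 at 72 h and 7.53 at 24 h in Ota cells, and 8.52 at 72 h and 7.69 at 24 h in control cells. HAT1 and RBBP7 were not called over time in Ota cells, each at -0.07. The 10 calls in Ota cells became 4 without Ota replicate 2 at 24 h, 5 without Ota replicate 2 at 72 h, and 6 without any other Ota array or control replicate 1 at 72 h.

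Probe sets of 1 gene can read different transcripts or parts of a transcript, so the 17 members with at least 2 tested probe sets were examined further. Whether a probe set, of the _x_at kind or another, also read other genes was not checked. The clearest split was in RBBP4. The probe set 210371_s_at read 10.63, 10.07 and 10.46 in Ota cells, against 11.65, 11.41 and 11.04 in control cells at 24 h. The probe set 244872_at read 11.50, 11.84 and 11.32 in Ota cells, against 8.61, 8.78 and 8.81 in control cells at 24 h. Thus the arrays of the groups were apart in both, with Ota below control in 210371_s_at and above it in 244872_at. The log2 difference was -0.98 ± 0.19 for 210371_s_at (adjusted p = 0.00225) and 2.82 ± 0.17 for 244872_at (7.07-fold, adjusted p = 9.06e-07). The probe sets 237333_at and 225396_at were higher as well, 6.34-fold and 6.11-fold, and 217301_x_at was lower, with a log2 difference of -0.98. The sixth, 239071_at, differed by -0.20 and was not called.

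At 72 h, 244872_at read 10.86, 11.37 and 11.02 in Ota cells, against 9.48, 9.83 and 9.41 in control cells, a 2.86-fold difference. At that time 210371_s_at read 10.89, 11.16 and 10.81 in Ota cells, against 11.52, 11.17 and 11.38 in control cells, and was not called (log2 difference -0.41 ± 0.19, adjusted p = 0.131). The rise in 244872_at, 237333_at and 225396_at was smaller at 72 h than at 24 h, by -1.30, -1.20 and -1.14 on the log2 scale (adjusted p = 0.00587, 0.00635 and 0.00727). Where the probe sets lie along the gene was not analysed here. With the mean of the gene's probe sets in place of the brightest, RBBP4 was higher at 24 h by 0.99 (adjusted p = 7.16e-05), so the direction of RBBP4 at 24 h depends on the probe set read.

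**Figure D4:**
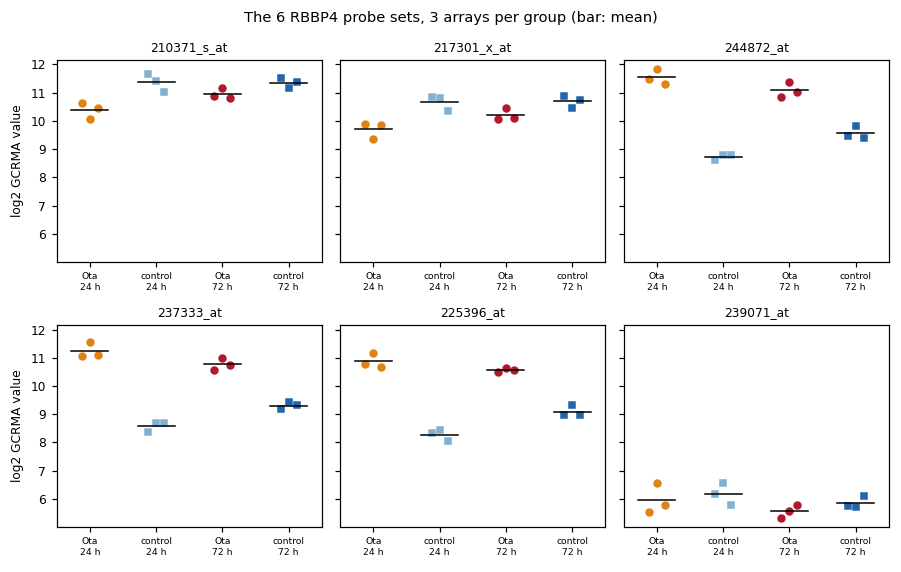
Log2 GCRMA values of the 6 RBBP4 probe sets by group, 3 arrays each, with a bar for the mean. In 244872_at, 237333_at and 225396_at the Ota arrays lie above the control arrays at both times, and in 210371_s_at they lie below them at 24 h.

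To test such splits, the value of each probe set minus the mean of the gene's other tested probe sets was fitted in the same way. This test was added after the data were seen. At 24 h, 13 of 43 member probe sets were apart from the rest of their gene (30.2%), against 31.2% of the 13957 probe sets in such genes, and at 72 h it was 10 of 43 (23.3%) against 15.3%. At 24 h they belonged to RBBP4, SIRT5, CREBBP, HDAC8 and KAT5, and at 72 h to RBBP4, SIRT5 and CREBBP. All 6 RBBP4 probe sets were among them at both times. The values of probe sets of 1 gene depend on each other in this test. Where a gene has 2, as in SIRT5, CREBBP and HDAC8, they mirror each other. In RBBP4, 239071_at counted as apart at 24 h (-1.43 ± 0.24), though its own difference was not called. The counted probe sets are therefore not independent. Called probe sets in opposite directions at 24 h occurred in RBBP4 and SIRT5, 2 of 17 genes, against 9.25% of the 5200 genes with at least 2 tested probe sets.

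In SIRT5, the probe set 229112_at read 5.99, 6.07 and 5.71 in Ota cells, against 4.86, 5.19 and 5.00 in control cells at 24 h. It was higher by 0.90 ± 0.19 (adjusted p = 0.00385), opposite to the brightest probe set, and the 2 SIRT5 probe sets differed in response by 1.38 ± 0.22 (adjusted p = 0.000421). In CREBBP, 228177_at read 6.82, 6.97 and 6.32 in Ota cells, against 5.73, 5.56 and 5.81 in control cells at 24 h. That is a log2 difference of 1.00 ± 0.20 (adjusted p = 0.00326), where the brightest CREBBP probe set was at 0.05. With its probe sets averaged, CREBBP was at 0.53 at 24 h (adjusted p = 0.0188) and 0.16 at 72 h (adjusted p = 0.45), so its call at 24 h and its sign at 72 h depend on the probe set read. At 72 h, 228177_at was at 0.65 ± 0.20 (adjusted p = 0.0339), but its adjusted p was 0.0566, 0.0709 and 0.108 without Ota replicate 1, 2 and 3 and 0.124 without control replicate 3 at 72 h, where the difference was 0.43. In KAT8 no such split was called, and its second probe set, 214885_at, was higher at 72 h too (1.11 ± 0.33, adjusted p = 0.0285). Its values lay near the filter, and it exceeded 4 on Ota arrays alone. It was thus tested only through the groups where it was high, and its call is no separate support for KAT8. The adjusted p was 0.0961 to 0.104 without Ota replicate 1 or 3 or control replicate 3 at 72 h (log2 difference 0.72 without the last). In KAT5, 214258_x_at was lower at 24 h like the brightest (-0.38, adjusted p = 0.00907), while 209192_x_at was at -0.03. HDAC2's second probe set, 242141_at, was higher at 72 h (0.59, adjusted p = 0.0243), with values near the filter of 4.36, 3.84 and 4.07 in Ota cells, against 3.21, 3.85 and 3.44 in control cells. That call was lost without Ota replicate 1 or 3 or control replicate 1 or 3 at 72 h (adjusted p = 0.0564 to 0.101). No control array exceeded 4 in 242141_at, so it too was tested only through the groups where it was high. Its call is no separate support for HDAC2.

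**Figure D5:**
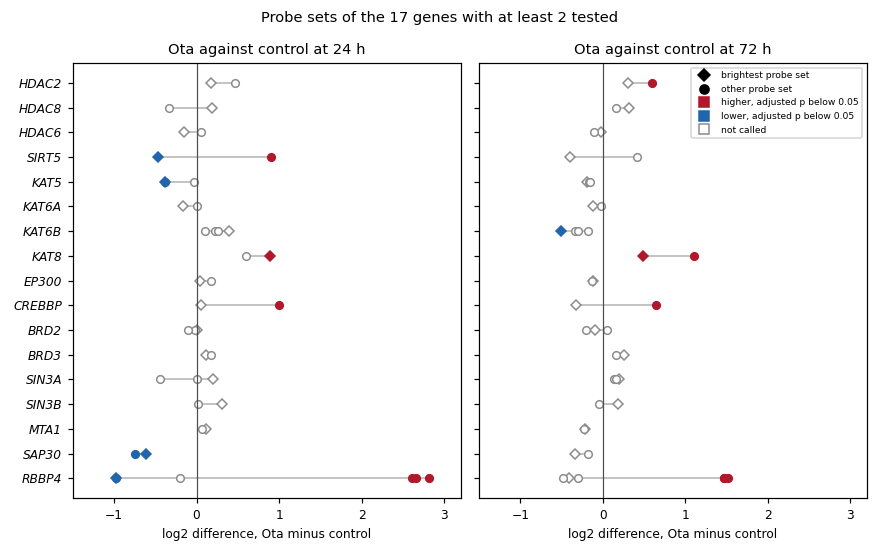
Log2 difference between Ota and control cells of every tested probe set of the 17 genes with at least 2, at 24 h on the left and 72 h on the right. Diamonds are the brightest probe set of a gene, circles the others, and a line joins the probe sets of a gene. RBBP4 spans from -0.98 to 2.82 at 24 h.

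Other genes of the acetylation machinery were described from 10 lists with 124 genes, of which 109 were tested. At 24 h, 13 were higher and 24 lower in Ota cells (median log2 difference -0.06, as over all genes), and at 72 h 16 were higher and 19 lower (median -0.02). Over all genes 29.8% were called at 24 h, 8.94% higher and 20.9% lower, and 29.4% at 72 h, 15.7% higher and 13.7% lower, and the counts over the 10 lists together lie near these shares. No list was tested against them. The partners of KAT2A and KAT2B in the SAGA and ATAC complexes were called lower in 6 of 16 genes at 24 h, where 20.9% of all genes were, and in 8 of 16 at 72 h, where 13.7% were, and higher in none. Among them TAF10 read -1.05 ± 0.14 at 24 h and -1.02 ± 0.14 at 72 h on the log2 scale (adjusted p = 0.000171 and 0.000326). TAF5L was at -2.35 ± 0.17 at 24 h (adjusted p = 2.43e-06), and SUPT3H at -1.65 ± 0.21 at 72 h (adjusted p = 0.000274). A second tested probe set of each was not lower, at 0.16 for TAF5L at 24 h and 0.09 for SUPT3H at 72 h. Other genes called lower also had probe sets above 0. At 24 h these reached 2.01 for DR1, 0.88 for SUPT3H and 0.64 for SUPT7L. At 72 h they reached 0.90 for DR1, 0.48 for ZZZ3 and 0.32 for TADA2B. The 2 probe sets of TRRAP at 24 h and of SGF29 at 72 h were all negative, and TAF10 and TAF12 had 1 each. The counts of lower genes therefore depend on the probe set read. In the NuA4 complex around KAT5, 2 of 15 genes were higher and 3 lower at 24 h, with the smallest p for DMAP1 (-1.94 ± 0.22, adjusted p = 5.81e-05) and RUVBL2 (-0.65 ± 0.08, adjusted p = 0.000113), and 4 were lower at 72 h. The smallest p at 72 h were those of MBTD1 (-0.49 ± 0.11) and MORF4L2 (-0.39 ± 0.09), and the fall of DMAP1 was larger (-0.88 ± 0.22, adjusted p = 0.0109). The 3 tested probe sets of MBTD1 ran from -0.49 to 0 at 72 h.

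Of 17 partners of KAT6A, KAT6B, KAT7 and KAT8, 3 were higher and 1 lower at 24 h and 3 were higher at 72 h. Over all genes 8.94% were higher and 20.9% lower at 24 h, and 15.7% were higher and 13.7% lower at 72 h. MSL1, a scaffold of a KAT8 complex, was at 0.48 ± 0.13 and MCRS1 at -0.35 ± 0.09 at 24 h. JADE1 and JADE2, which partner KAT7, were at 0.43 ± 0.10 and 0.40 ± 0.13 at 72 h. Other probe sets of these genes went down to -1.72 for MSL1 at 24 h and to -1.32 for JADE1 at 72 h, so their directions depend on the probe set read. Of 6 other acetyltransferases and coactivators, 2 were higher and 3 lower at 24 h. Probe sets of NCOA1, counted as higher, ran from -0.35 to 0.50, and those of ELP3, counted as lower, from -0.70 to 0.60. Those of NCOA2, also higher, ran from 0.21 to 0.45, and NAT10 and ESCO2 had 1 each. NAT10, which acetylates RNA, was at -1.87 ± 0.16 at 24 h (adjusted p = 1e-05) and -0.84 ± 0.16 at 72 h, where it was the only call. ESCO2, which acetylates cohesin, was at -1.29 ± 0.27 at 24 h.

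The counts of the next lists stand beside shares over all genes of 8.94% higher and 20.9% lower at 24 h, and 15.7% and 13.7% at 72 h. Among deacetylase complexes, SIN3 had 1 of 8 genes higher at 24 h and 2 at 72 h. SAP30L, a paralog of SAP30, was at 1.70 ± 0.16 at 24 h and 0.68 ± 0.16 at 72 h, and ING2 at 0.36 ± 0.11 at 72 h. A second SAP30L probe set was at -0.69 at 24 h. NuRD had 1 of 8 higher and 2 lower at 24 h, and 2 higher and 2 lower at 72 h. Its GATAD2B was at 1.41 ± 0.18 at 24 h, and its MBD2 at -0.59 ± 0.10 at 24 h and -0.45 ± 0.10 at 72 h, with MTA3 at -0.57 ± 0.14 at 72 h. The second probe set of GATAD2B was at 0.16 at 24 h, and that of MTA3 at 0.04 at 72 h. In the NCoR, SMRT, CoREST, MiDAC and MIER list, 2 of 11 genes were lower at 24 h and 4 at 72 h. The smallest p were those of the HDAC3 partners GPS2 (-1.71 ± 0.11 at 24 h and -1.13 ± 0.11 at 72 h) and TBL1X (-0.42 ± 0.11 at 24 h and -0.73 ± 0.11 at 72 h). PHF21A, of the CoREST complex, was at -0.90 ± 0.20 at 72 h (adjusted p = 0.00713), and its 3 tested probe sets ran from -0.90 to 0.13. The probe sets of TBL1X ran from -0.56 to 0.03 at 24 h and from -0.81 to 0.16 at 72 h. Of 12 acetyl-lysine readers, 2 were higher and 1 lower at 24 h, with BRD9 at -0.61 ± 0.10 and BAZ2B at 0.43 ± 0.11, and ATAD2 was the only call at 72 h (1.56 ± 0.13, adjusted p = 2.04e-05).

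Of 8 genes tied to the supply of acetyl-CoA and NAD, 1 was higher and 2 lower at 24 h, against 8.94% and 20.9% of all genes. At 72 h 4 were higher, against 15.7% of all genes. ACSS2, which makes acetyl-CoA from acetate, read 9.48, 9.33 and 9.61 in Ota cells, against 10.23, 10.09 and 10.30 in control cells at 24 h. At 72 h it read 10.90, 10.47 and 10.96 in Ota cells, against 9.60, 9.27 and 9.45 in control cells. ACSS2 was thus lower at 24 h (-0.73 ± 0.14, adjusted p = 0.00262) and higher at 72 h (1.34 ± 0.14, adjusted p = 9.27e-05), without overlap at either time. SLC25A1, the mitochondrial citrate carrier, was at -0.62 ± 0.15 at 24 h. NNMT methylates nicotinamide and so does not itself supply NAD. It was the 1 gene higher at 24 h (0.31 ± 0.09) and among the 4 higher at 72 h (0.74 ± 0.09).

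Chaperones that carry newly made histones were lower in 4 of 8 genes and higher in 1 at 24 h, where 20.9% of all genes were lower and 8.94% higher, and higher in 4 at 72 h, where 15.7% of all genes were. CHAF1A, a subunit of the CAF-1 complex that also holds RBBP4, was at -0.48 ± 0.11 at 24 h (adjusted p = 0.00489) and 1.17 ± 0.11 at 72 h (adjusted p = 3.11e-05). UBN1 was at -0.86 ± 0.15 at 24 h, and its second tested probe set at -0.17. The probe sets of CHAF1A ran from -0.76 to -0.41 at 24 h and from 1.17 to 1.75 at 72 h. NASP, counted as lower at 24 h and higher at 72 h, had probe sets from -0.72 to 1.95 at 24 h and from -0.06 to 2.69 at 72 h. Those of ASF1A, the 1 higher at 24 h, ran from -0.22 to 0.42. The directions of NASP and ASF1A thus depend on the probe set read. ASF1B read 9.31, 9.14 and 9.47 in Ota cells, against 6.70, 6.94 and 6.99 in control cells at 72 h. The arrays of the groups were far apart, with a log2 difference of 2.43 ± 0.12 (adjusted p = 4.15e-07), while at 24 h ASF1B was at -0.12 ± 0.12 and was not called.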

How the data were processed

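Expression was measured on 12 Affymetrix arrays with 54675 probe sets. The deposited log2 values come from GCRMA, as the submitters' processing notes record; its version was not given in the sources used here. GCRMA models background from probe sequence and brings arrays to a near-common distribution, so a change common to most transcripts could be hidden, and low values sit on a floor. Arrays have no read depth, so their number limits the precision. Symbols in the platform annotation were brought up to date with RefSeq names of GRCh38.p14, which also gave the promoters. Of the probe sets with 1 symbol, 41037 matched and 54 did not, while 1801 had several symbols and 11721 none. Control probe sets, 62, were left out.

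The 22477 probe sets that exceeded 4 on the log2 scale on 3 or more arrays were modelled by group means, all 12 arrays together, in limma 3.58.1 (R 4.3.3, data.table version 1.17.8), with lmFit and eBayes (8 residual and 2.93 prior degrees of freedom) and Benjamini-Hochberg adjustment over all of them. The brightest probe set on average stood for a gene. The fit was tested on simulated data. Figures were drawn with matplotlib 3.10.9 (pandas 2.3.3, Python 3.11.15). Errors of levels are SDs over 3 arrays. Nothing says what the biological replicates shared, so p-values reflect the spread among these arrays, which may be technical.

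Values on every array were given for called members with up to 6 of the smallest p in each direction in each Ota comparison, for 10 members set whatever their values (HDAC1, HDAC2, HDAC3, SIRT1, KAT2A, KAT2B, EP300, CREBBP, HAT1 and BRD2), for called members of the difference of responses, and, by name, for up to 2 genes with the smallest p per pathway list and Ota comparison; further probe sets and members were named after their values were seen. The members and lists were chosen with earlier results of these data known. Alternatives were other filters, scalings, variance models, units and designs, the replicate number as a block, and each array left out; averaging a gene's probe sets, the within-gene test and a shift to the median of tested probe sets were chosen after seeing the data.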

Additional observations from a re-analysis of the deposited data

Results flagged for a closer look

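The Ota responses of 5 probe sets differed between 72 h and 24 h by the test of that difference in limma. In KAT6B the response at 72 h minus that at 24 h was -0.90 on the log2 scale, with a fall at 72 h alone past the threshold. In RBBP4 it was -1.30 for 244872_at, -1.20 for 237333_at and -1.14 for 225396_at, whose Ota arrays lay above the control arrays at both times. In SAP30 it was 0.57 for 204899_s_at (adjusted p = 0.0418), which was lower in Ota cells at 24 h and not called at 72 h; this call was lost without any array but Ota replicate 1 or control replicate 1 at 24 h (adjusted p = 0.0597 to 0.086). Groups of 3 arrays are too small to look for a single outlying array.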

How the results depend on the processing

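Of 37 called probe sets of members in the Ota comparisons and their difference, 21 kept their call and sign under all alternatives run. At 24 h these include KAT7, KAT8, KAT2B and SIRT3, and at 72 h KAT7, KAT8, HDAC1 and RBBP7. All of these but KAT8 had 1 tested probe set, so averaging a gene's probe sets could not change their differences. Probe sets other than the brightest had no value in settings with 1 value per gene. The 21 thus include RBBP4 probe sets of opposite sign at 24 h, 244872_at (2.82) and 217301_x_at (-0.98). Of 15 values of the set genes that were not called, 4 were called under at least 1 alternative, among them HDAC1 at 24 h. With probe sets averaged per gene, added after seeing the data, RBBP4 at 24 h turned to 0.99 and SIRT5 to 0.22, CREBBP was called at 24 h (0.53, where it was 0.05) and turned to 0.16 at 72 h (where it was -0.33, both uncalled), and KAT6B lost its calls at 72 h (-0.33) and for the difference (-0.57). The count of members called at 72 h was 9 and became 5 with no filter. The count for the difference of responses was 1 and became 2 with no filter, with arrays shifted to a common median or with a trended and robust variance, and 3 with arrays shifted to the median of the tested probe sets. Over time in Ota cells it was 10 and became 6 with no filter. Fitting only the arrays compared took SAP30 (204900_x_at) at 24 h to an adjusted p of 0.0608.

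With the replicate block, the counts of members called were 8 at 24 h, 10 at 72 h, 1 for the difference, 15 over time in control cells and 12 in Ota cells, those of pathway genes were 40 and 35, and those of probe sets apart from their gene 14 and 10. KAT5 and SIRT5 at 24 h and KAT2B at 72 h lost their calls under the block. The replicate numbers were not taken to pair arrays across groups: deviations of same-numbered arrays correlated at -0.08 to 0.48, above 0.1 in 13 of 18 pairs, and 10 of 12 arrays correlated best with their own number, a hint from the data and not the design.

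Leaving out 1 array at a time gave 6 to 10 members called at 24 h, 5 to 10 at 72 h, 1 to 3 for the difference, 10 to 16 over time in control cells and 4 to 10 in Ota cells, 28 to 41 pathway genes at 24 h and 26 to 36 at 72 h, and 10 to 14 probe sets apart from their gene at 24 h and 7 to 10 at 72 h. Shifting arrays to the median of the tested probe sets moved the split of all tested probe sets at 24 h to 3358 higher and 3630 lower, where it was 2900 and 4071, and at 72 h to 3115 and 3401, where it was 3695 and 2649. Fitting only the compared groups gives no value for the difference, and settings with 1 value per gene give none for the within-gene test. Values near the GCRMA floor limit HDAC9, HDAC5, SIRT6, the second probe sets of KAT8 and HDAC2, and the members under the filter. HDAC9, HDAC5 and those second probe sets would not have passed the filter without Ota arrays.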
